A study of Homo sapiens with 12 samples.

Results

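Transcripts of 35 genes for lysosomal enzymes, lysosomal membrane proteins and the transcription factors TFEB and TFE3 were followed in 2 human acute myeloid leukaemia cell lines treated with selinexor. The genes were chosen by name, with earlier results of these data known. They stand among 18304 genes measured in at least 1 of the lines. MOLM-13 cells received 75 nM selinexor or vehicle and OCI-AML2 cells received 200 nM selinexor or vehicle, in each case for 36 h. Selinexor is a small molecule that blocks XPO1, the receptor that carries proteins with a nuclear export signal out of the nucleus. Each of the 4 groups held 3 libraries of polyadenylated RNA from whole cells, which the submitters describe as biologically independent. Every group is 1 established line at 1 dose and 1 time, so line and dose cannot be told apart.

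Lysosomes are acidic organelles in which hydrolases break down proteins, glycans and lipids delivered by endocytosis, phagocytosis and autophagy. The enzymes reach them largely by the mannose 6-phosphate route and work inside a membrane lined by heavily glycosylated proteins such as LAMP1 and LAMP2. Many lysosomal genes carry a CACGTG-type element near their start that TFEB and TFE3 can bind. The kinase mTORC1 keeps both factors phosphorylated and in the cytoplasm when nutrients are plentiful, and XPO1 is known to carry TFEB out of the nucleus. Myeloid cells also use lysosome-like granules, and cathepsin C activates the serine proteases stored there. The libraries report transcript levels, not protein amounts or the place of a protein in the cell.

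The 12 libraries held 8114892 to 11769061 counts, which puts a floor of 3 counts at 0.255 to 0.370 CPM, for counting error only. CPM is the count scaled by library size, here with TMM factors set within each line. Replicate libraries correlated across genes with Spearman coefficients of 0.986 to 0.990, and no 2 of them held identical values. The second OCI-AML2 vehicle library stood apart from its replicates, with a chi-square per gene of 4.04 and 5.56 against 1.61 to 2.36 for all other replicate pairs. Counts taken without it are given beside the results they touch. Genes of the blood lineage such as SPI1, a myeloid transcription factor, stood at 241 ± 10.3 CPM with selinexor and 186 ± 11.6 CPM with vehicle in MOLM-13 and at 428 ± 8.20 CPM with selinexor and 359 ± 12.6 CPM with vehicle in OCI-AML2, while the summed level of 8 lymphocyte markers did not exceed 19.6 CPM in any library. CD34, a marker of immature blasts, was not analysed here. In bulk RNA, fewer cells of a kind and less RNA per cell cannot be told apart.

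Promoter windows were searched for the letters of the CACGTG-type element that TFEB and TFE3 can bind. RefSeq windows on GRCh38.p14, which run from 250 bases before to 50 bases after the annotated start, were found for 26 of the 35 genes. The 6-letter core CACGTG, which reads the same on both strands, was present in 7 of them (CD63, CTSA, CTSD, GAA, LAMP1, MCOLN1 and NEU1) and in 7.26% of all 35116 windows. The longer TCACGTGA, which contains the core, was present in 4 (CTSA, GAA, LAMP1 and MCOLN1) and in 0.980% of all windows. Below are stretches before those 4 RefSeq starts, all on the plus strand, with CACGTG in capitals: chr17:80101431-80101580 for GAA, chr20:45891290-45891319 for CTSA, chr13:113296989-113297238 for LAMP1 and chr19:7522474-7522623 for MCOLN1. The log2 fold changes of these 4 genes are given below, and a link between the element and the response was not tested.
GAA: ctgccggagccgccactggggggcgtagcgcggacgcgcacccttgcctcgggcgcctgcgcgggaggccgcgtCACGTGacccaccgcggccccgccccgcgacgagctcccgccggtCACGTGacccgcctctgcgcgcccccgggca
CTSA: tgtCACGTGgcgccggagttCACGTGactc
LAMP1: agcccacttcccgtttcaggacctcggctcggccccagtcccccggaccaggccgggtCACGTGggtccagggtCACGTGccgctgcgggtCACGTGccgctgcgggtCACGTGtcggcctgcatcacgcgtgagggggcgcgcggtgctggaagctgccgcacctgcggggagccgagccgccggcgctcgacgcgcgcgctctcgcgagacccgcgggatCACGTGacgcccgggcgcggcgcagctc
MCOLN1: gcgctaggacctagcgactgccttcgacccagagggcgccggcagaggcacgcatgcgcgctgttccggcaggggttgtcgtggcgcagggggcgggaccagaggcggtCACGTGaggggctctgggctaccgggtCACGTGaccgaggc

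GENCODE 29 annotates exons of the gene that begin before some of these RefSeq starts, so all 30 bases of the CTSA stretch, 25 of the 150 of GAA and 19 of the 30 shown for GRN are exonic there. The stretches hold 2 copies of the core for GAA, 2 for CTSA, 5 for LAMP1 and 2 for MCOLN1. GRN, which had the largest response of the 35 genes in OCI-AML2, had no CACGTG in its window but 2 copies of the related CACATG, searched on both strands and present in 11.1% of windows. They are in capitals in its stretch at chr17:44345075-44345104, on the plus strand.
GRN: gacgtCACATGattctccaatCACATGatc
CACATG was also present in the windows of CD63, CTSA, SCARB2 and TPP1. A match describes letters in a window and not binding, and a window without one says nothing of either factor.

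More lysosomal transcripts rose than fell in each line, and 16 of the 32 tested in both rose in both, where 21.0% of all genes did. Fold changes are selinexor over vehicle on the log2 scale, as estimate ± SE of 3 against 3 libraries, and a gene is called changed when edgeR's quasi-likelihood test gave a Benjamini-Hochberg adjusted p under 0.05 over all genes tested in the line. Calls were common, at 63.6% of all genes tested in MOLM-13 and 63.1% in OCI-AML2. In MOLM-13, 18 of the 32 tested genes were called higher, where 31.8% of all 11807 genes were, and 6 were called lower, where 31.8% of all genes were. In OCI-AML2, 25 of the 34 tested genes were called higher, where 31.3% of all 12086 genes were, and 1 was called lower, where 31.8% were. Without the second OCI-AML2 vehicle library the OCI-AML2 counts were 26 and 2. The share called higher was 56.2% in MOLM-13 and 73.5% in OCI-AML2. The median log2 fold change of the tested genes was 0.26 in MOLM-13 and 0.67 in OCI-AML2, beside 0.0091 and -0.0016 over all genes. A rise of at least 2-fold was called for 6 of the genes in MOLM-13 and 11 in OCI-AML2, which was the case for 7.27% and 7.23% of all genes.

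The 3 selinexor libraries lay above all 3 vehicle libraries for 20 of the tested genes in MOLM-13 and below them for 7, while the groups overlapped for 5; over all genes these shares were 32.7% above and 32.8% below. In OCI-AML2 they lay above for 25 and below for 2, with overlap for 7; over all genes 33.0% lay above and 33.3% below. Each tested gene had at least 57 counts in every MOLM-13 library and at least 78 in every OCI-AML2 library, so none entered the test through 1 group alone. Of the 32 genes tested in both lines, 16 were called higher in both, where 21.0% of all 11202 genes tested in both were. CTSC alone was called lower in both, where 23.6% of all genes were, and CTSB and GUSB were called lower in MOLM-13 and higher in OCI-AML2, opposite calls that 2.86% of all genes had. GLA and TFE3 were called higher in MOLM-13 with no call in OCI-AML2. CTSA, CTSD, GLB1, HEXA and NPC2 were called higher in OCI-AML2 with no call in MOLM-13, and NAGLU, LAMP1 and MCOLN1 were called lower in MOLM-13 with no call in OCI-AML2. ACP2, NPC1 and TFEB were called in neither. CTSH and CTSL, which were below the filter on low counts in MOLM-13, were called higher in OCI-AML2, and SGSH was tested in neither line.

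**Figure D1:**
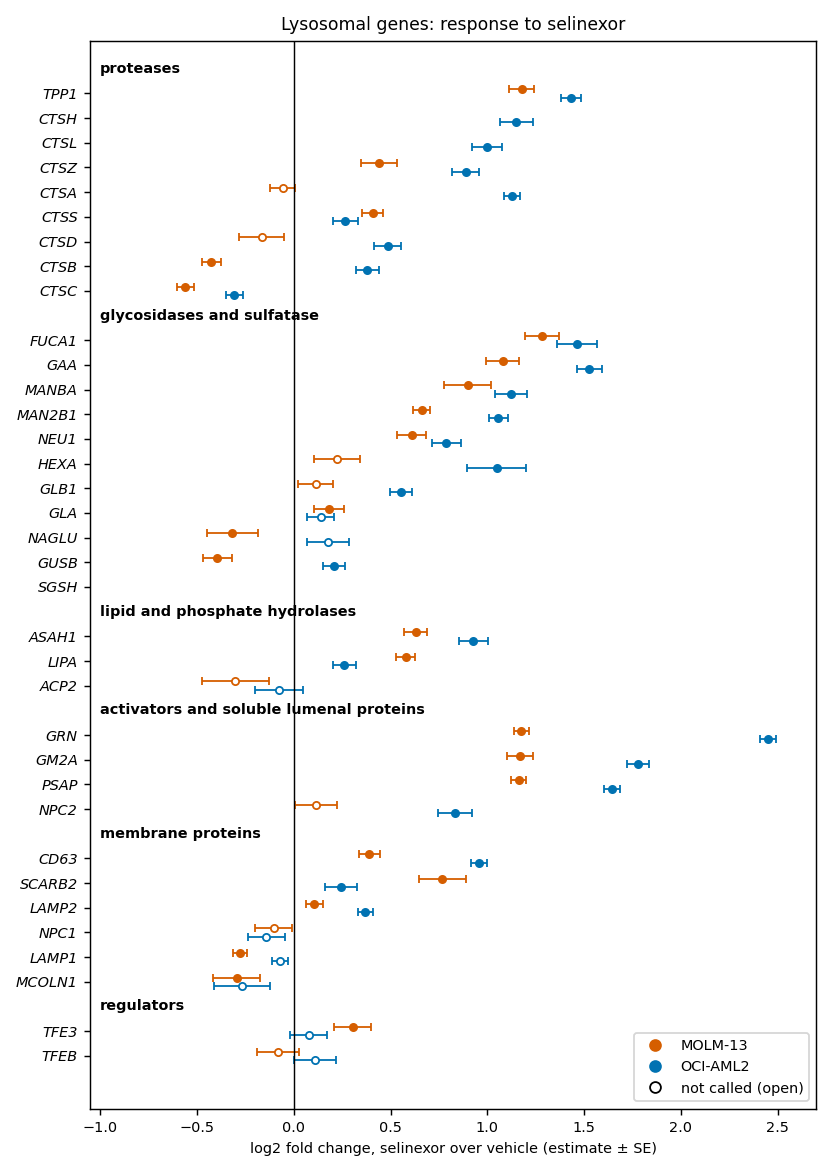
Log2 fold change of each lysosomal gene (selinexor over vehicle, x axis) in MOLM-13 (orange) and OCI-AML2 (blue), grouped by role; points are edgeR estimates from 3 against 3 libraries, bars are SE, filled points passed an adjusted p of 0.05 and open points did not. In OCI-AML2, GRN lies farthest to the right at 2.45 ± 0.0410, and in MOLM-13, FUCA1 does at 1.28 ± 0.0891. TFEB lies near 0 in both lines, while TFE3 lies near 0 in OCI-AML2 and at 0.30 ± 0.0949 in MOLM-13.

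In OCI-AML2 the 3 largest rises were those of GRN, GM2A and PSAP, while in MOLM-13 the largest was that of the glycosidase FUCA1. The 3 are grouped here with the activators and soluble proteins of the lumen, some of which help enzymes reach lipid substrates or carry lipids themselves. GRN encodes progranulin, a secreted and lysosomal glycoprotein that is cut into granulins (chr17:44345086-44353102, plus strand on GRCh38). It stood at 403, 411 and 375 CPM with selinexor and 171, 173 and 182 CPM with vehicle in MOLM-13. In OCI-AML2 it stood at 1042, 1045 and 1034 CPM with selinexor and 186, 198 and 188 CPM with vehicle. The groups were far apart in both lines: the rise was 2.26-fold in MOLM-13 (log2 1.18 ± 0.0395, edgeR adjusted p = 1.06e-48) and 5.46-fold in OCI-AML2 (log2 2.45 ± 0.0410, edgeR adjusted p = 2.31e-38). CPM values were scaled separately in each line, and levels are not compared between the lines other than through the fold changes.

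PSAP encodes prosaposin, the precursor of the saposins that assist the breakdown of sphingolipids (chr10:71816298-71851375, minus strand). Its level was 449.7, 442 and 429 CPM with selinexor and 204, 191 and 194 CPM with vehicle in MOLM-13, and 557, 546 and 536 CPM with selinexor and 173, 172 and 179 CPM with vehicle in OCI-AML2. All selinexor libraries exceeded all vehicle libraries in both lines, with rises of 2.24-fold in MOLM-13 and 3.13-fold in OCI-AML2. GM2A encodes the activator that presents ganglioside GM2 to the hexosaminidase made with the HEXA product. GM2A had 88.2, 84.5 and 97.0 CPM with selinexor and 40.4, 39.3 and 40.2 CPM with vehicle in MOLM-13. It had 199, 192 and 203 CPM with selinexor and 56.2, 62.3 and 54.1 CPM with vehicle in OCI-AML2. Log2 fold changes were 1.17 ± 0.0680 in MOLM-13 and 1.78 ± 0.0547 in OCI-AML2, with no overlap of groups.

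NPC2, a cholesterol carrier that hands its cargo to the membrane protein NPC1, was the exception among these 4 genes. It read 21.2, 20.6 and 19.7 CPM with selinexor and 19.3, 18.9 and 18.7 CPM with vehicle in MOLM-13, and 37.3, 38.1 and 38.3 CPM with selinexor and 22.5, 20.7 and 20.8 CPM with vehicle in OCI-AML2. The MOLM-13 libraries did not overlap but differed by only 0.11 ± 0.109, which was not called (edgeR adjusted p = 0.365), whereas the OCI-AML2 rise of 0.83 ± 0.0880 was. NPC2 shares 103 exonic bases with ISCA2, and the libraries do not keep the strand. The summed level of 23 monocyte and macrophage markers was 1322 to 1380 CPM with selinexor and 434.9 to 448 CPM with vehicle in MOLM-13. In OCI-AML2 it was 11010 to 11330 CPM with selinexor and 2685 to 2880 CPM with vehicle. Much of the sum was LYZ alone, which averaged 958 CPM with selinexor and 116 CPM with vehicle in MOLM-13. In OCI-AML2, LYZ averaged 9580 CPM with selinexor and 1735 CPM with vehicle. The part of this marker shift in the lysosomal values was not tested.

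Proteases split by line. In MOLM-13, 3 of 7 tested were called higher and 2 lower, with a median log2 fold change of -0.058. There 31.8% of all genes were called in each direction, and the count called lower was near that share. In OCI-AML2, where 31.3% and 31.8% of all genes were called higher and lower, 8 of 9 proteases were called higher and 1 lower, with a median of 0.89. TPP1, tripeptidyl peptidase 1, which is deficient in a childhood form of neuronal ceroid lipofuscinosis, had the largest rise among them in both lines (chr11:6612763-6619485, minus strand). It was measured at 111, 106 and 109 CPM with selinexor and 55.1, 42.7 and 46.5 CPM with vehicle in MOLM-13. It was measured at 187, 184 and 174 CPM with selinexor and 68.9, 63.5 and 69.5 CPM with vehicle in OCI-AML2. The treated libraries were clear of every vehicle library in both lines, with 2.26-fold and 2.699-fold rises in MOLM-13 and OCI-AML2. CTSZ, a cysteine carboxypeptidase, had 34.3, 30.8 and 33.9 CPM with selinexor and 26.7, 21.1 and 25.0 CPM with vehicle in MOLM-13. CTSZ had 65.8, 66.2 and 71.1 CPM with selinexor and 35.04, 37.8 and 36.8 CPM with vehicle in OCI-AML2. The groups were apart in both lines, and the log2 fold changes were 0.44 ± 0.0951 in MOLM-13 and 0.89 ± 0.0697 in OCI-AML2. CTSS, an endopeptidase of antigen-presenting cells, averaged 109 ± 3.52 CPM with selinexor and 82.1 ± 2.87 CPM with vehicle in MOLM-13, and 73.0 ± 3.80 CPM with selinexor and 60.7 ± 2.72 CPM with vehicle in OCI-AML2 (SD, n = 3), rises of 0.41 ± 0.0555 and 0.27 ± 0.0643 on the log2 scale.

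CTSA encodes cathepsin A, a serine carboxypeptidase that also protects beta-galactosidase and the sialidase NEU1 in a complex (chr20:45890144-45898820, plus strand). It stood at 64.4, 69.2 and 62.2 CPM with selinexor and 62.4, 71.6 and 69.9 CPM with vehicle in MOLM-13, so the MOLM-13 groups overlapped. In OCI-AML2 it stood at 321, 327 and 334 CPM with selinexor and 150.2, 149 and 150.3 CPM with vehicle, and every treated library lay far above every control. The log2 fold change was -0.06 ± 0.0656 in MOLM-13 (edgeR adjusted p = 0.451; the log2 fold change was 0.012 with upper quartile scaling and again not called) and 1.13 ± 0.0416 in OCI-AML2 (edgeR adjusted p = 3.95e-26). CTSA shares 1038 exonic bases with NEURL2 and 200 with PLTP, and reads there cannot be assigned without strand. CTSD, the aspartic protease of the lysosome, had 15.3, 18.5 and 16.4 CPM with selinexor and 19.0, 20.6 and 16.96 CPM with vehicle in MOLM-13. CTSD had 68.3, 60.5 and 67.4 CPM with selinexor and 44.1, 50.4 and 45.2 CPM with vehicle in OCI-AML2. Its groups overlapped in MOLM-13, where the change of -0.17 ± 0.117 was not called, and were apart in OCI-AML2, where it rose by 0.49 ± 0.0704.

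CTSB, a cysteine protease of broad specificity, was called in opposite directions (chr8:11842524-11869448, minus strand). It read 115, 125 and 117 CPM with selinexor and 159.9, 159 and 160.4 CPM with vehicle in MOLM-13. It read 93.0, 101 and 93.7 CPM with selinexor and 74.7, 75.2 and 71.4 CPM with vehicle in OCI-AML2. No library of one treatment reached the range of the other in either line, and the log2 fold change was -0.43 ± 0.0478 in MOLM-13 (edgeR adjusted p = 1.98e-13) and 0.38 ± 0.0587 in OCI-AML2 (edgeR adjusted p = 3.40e-07). CTSC, the dipeptidyl peptidase that activates granule serine proteases, was the only protease called lower in both. Its levels were 153, 144 and 159 CPM with selinexor and 223, 237 and 211 CPM with vehicle in MOLM-13, and 187, 196 and 209 CPM with selinexor and 239, 238 and 255 CPM with vehicle in OCI-AML2. All treated libraries lay below all controls, with log2 fold changes of -0.56 ± 0.0446 in MOLM-13 and -0.31 ± 0.0449 in OCI-AML2.

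CTSH, an aminopeptidase, and CTSL, an endopeptidase, were expressed in only 1 of the lines to a level that could be tested. In MOLM-13, CTSH had 0.231, 0.730 and 0.250 CPM with selinexor and 0.365, 0.328 and 0.209 CPM with vehicle, and CTSL had 0.807, 0.417 and 0.250 CPM with selinexor and 0.122, 0.547 and 0.105 CPM with vehicle, values near the 3-count floor for which no fold is given. In OCI-AML2, CTSH had 43.2, 45.4 and 47.4 CPM with selinexor and 21.1, 19.3 and 21.0 CPM with vehicle. There CTSL had 57.1, 68.8 and 67.7 CPM with selinexor and 30.6, 32.1 and 34.3 CPM with vehicle. Both rose in that line with no overlap of groups, by 1.15 ± 0.0861 for CTSH and 1.00 ± 0.0766 for CTSL on the log2 scale.

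Glycosidases, which trim sugars from glycoproteins, glycolipids and glycosaminoglycans, were mostly higher. Of 10 tested, 6 were called higher and 2 lower in MOLM-13 (median log2 fold change 0.42), where 31.8% of all genes were called in each direction. In OCI-AML2, where 31.3% and 31.8% of all genes were called higher and lower, 8 of the glycosidases were called higher and none lower (median 0.92). FUCA1, the fucosidase of glycoproteins, had the largest rise among them in MOLM-13 (chr1:23845077-23868294, minus strand). It had 53.2, 46.3 and 49.4 CPM with selinexor and 20.1, 20.9 and 20.1 CPM with vehicle in MOLM-13. It had 33.6, 35.5 and 35.1 CPM with selinexor and 12.4, 11.3 and 14.2 CPM with vehicle in OCI-AML2. These are log2 fold changes of 1.28 ± 0.0891 in MOLM-13 and 1.46 ± 0.103 in OCI-AML2, with all treated libraries above all controls. GAA, the acid alpha-glucosidase that degrades glycogen and is deficient in Pompe disease, carries 2 CACGTG cores in the stretch printed above (chr17:80101556-80119879, plus strand). GAA stood at 49.0, 51.8 and 53.0 CPM with selinexor and 25.0, 22.3 and 25.4 CPM with vehicle in MOLM-13. GAA stood at 125, 112 and 117 CPM with selinexor and 39.3, 43.9 and 39.2 CPM with vehicle in OCI-AML2. Treated libraries were above controls in both lines, by 2.11-fold in MOLM-13 and 2.88-fold in OCI-AML2.

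The enzymes that take mannose, sialic acid and galactose off glycans mostly had smaller log2 fold changes. MANBA, the beta-mannosidase, had 21.2, 25.9 and 20.1 CPM with selinexor and 11.7, 11.3 and 13.2 CPM with vehicle in MOLM-13, and 51.2, 46.9 and 51.7 CPM with selinexor and 21.8, 24.1 and 22.9 CPM with vehicle in OCI-AML2. It rose by 0.90 ± 0.122 and 1.12 ± 0.0824 in MOLM-13 and OCI-AML2 with no overlap of groups. MAN2B1, the alpha-mannosidase, averaged 250.4 ± 12.1 CPM with selinexor and 158 ± 9.32 CPM with vehicle in MOLM-13, and 253 ± 0.976 CPM with selinexor and 121 ± 9.74 CPM with vehicle in OCI-AML2 (SD, n = 3), rises of 0.66 ± 0.0435 and 1.06 ± 0.0483. NEU1, the lysosomal sialidase, averaged 58.4 ± 1.27 CPM with selinexor and 38.3 ± 1.5 CPM with vehicle in MOLM-13, and 59.1 ± 1.02 CPM with selinexor and 34.2 ± 3.602 CPM with vehicle in OCI-AML2 (SD, n = 3), rises of 0.61 ± 0.0748 and 0.79 ± 0.0752. GLB1, the beta-galactosidase whose activity at mild acidity is used as a stain for senescent cells, was called in OCI-AML2 only. GLB1 had 31.6, 34.0 and 30.7 CPM with selinexor and 29.05, 30.1 and 30.05 CPM with vehicle in MOLM-13. GLB1 had 107, 106 and 107 CPM with selinexor and 72.8, 77.2 and 68.1 CPM with vehicle in OCI-AML2. The groups did not overlap in either line, but MOLM-13 showed a difference of only 0.11 ± 0.0896 (edgeR adjusted p = 0.269) and OCI-AML2 a rise of 0.55 ± 0.0581. HEXA, the alpha subunit of the hexosaminidase deficient in Tay-Sachs disease, read 18.3, 18.7 and 17.6 CPM with selinexor and 14.6, 15.9 and 16.3 CPM with vehicle in MOLM-13. HEXA read 46.0, 47.0 and 52.0 CPM with selinexor and 18.6, 21.4 and 29.9 CPM with vehicle in OCI-AML2. The OCI-AML2 vehicle libraries were unequal, and the rise there of 1.05 ± 0.151 had the widest error of the called genes in that line; in MOLM-13 the groups did not overlap but the difference of 0.22 ± 0.118 was not called (edgeR adjusted p = 0.0930; with upper quartile scaling it was 0.29 with an adjusted p of 0.0256). HEXA shares 364 exonic bases with its antisense gene HEXA-AS1.

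Of the enzymes of glycosaminoglycan breakdown, GUSB and NAGLU were called lower in MOLM-13. GUSB, the beta-glucuronidase, which is also used as a control gene in PCR assays, was called in opposite directions (chr7:65960684-65982314, minus strand). It had 51.3, 44.1 and 39.9 CPM with selinexor and 59.6, 56.9 and 61.6 CPM with vehicle in MOLM-13. It had 99.8, 102 and 99.6 CPM with selinexor and 81.9, 91.1 and 87.4 CPM with vehicle in OCI-AML2. The groups did not overlap in either line, with -0.39 ± 0.0746 in MOLM-13 (edgeR adjusted p = 2.52e-06) and 0.21 ± 0.0565 in OCI-AML2 (edgeR adjusted p = 0.00142). NAGLU, which removes N-acetylglucosamine from heparan sulfate, read 10.3, 14.8 and 14.7 CPM with selinexor and 18.0, 15.1 and 16.6 CPM with vehicle in MOLM-13. NAGLU read 21.5, 20.1 and 19.7 CPM with selinexor and 16.2, 20.2 and 17.4 CPM with vehicle in OCI-AML2. Its MOLM-13 groups did not overlap and its OCI-AML2 groups did. The change of -0.32 ± 0.131 in MOLM-13 was called (edgeR adjusted p = 0.0290), but not without the first selinexor library (-0.17), the first vehicle library (-0.26) or the third (-0.31). The OCI-AML2 change of 0.18 ± 0.109 was not called, but was without the second vehicle library (0.27, edgeR adjusted p = 0.0403). SGSH, the sulfamidase of the same pathway, had 1 count in 1 MOLM-13 selinexor library and none in the other 5, and it was not analysed in OCI-AML2. SGSH shares 153 exonic bases with CARD14 and 8 with SLC26A11, both on the opposite strand. How reads were counted is not given, so the lack of counts need not mean a lack of transcript. Whether counting lost reads of SGSH was not tested. GLA, the alpha-galactosidase A of Fabry disease, had 45.6, 49.7 and 52.2 CPM with selinexor and 47.0, 41.4 and 42.0 CPM with vehicle in MOLM-13, and 53.0, 48.7 and 57.1 CPM with selinexor and 48.0, 47.3 and 48.9 CPM with vehicle in OCI-AML2. The groups overlapped in both lines, and the change of 0.18 ± 0.0772 in MOLM-13, called at an edgeR adjusted p of 0.0354, was 0.14 to 0.17 and not called without the second or the third library of either treatment.

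Hydrolases of lipids and phosphate esters are represented by 3 genes, 2 of which rose in each line. Of all genes, 31.8% were called higher in MOLM-13 and 31.3% in OCI-AML2. ASAH1, acid ceramidase, had 106, 95.8 and 99.7 CPM with selinexor and 61.7, 70.7 and 62.3 CPM with vehicle in MOLM-13. ASAH1 had 123, 125 and 129.6 CPM with selinexor and 64.4, 57.7 and 76.6 CPM with vehicle in OCI-AML2. The groups were apart in both lines, and the rise was 0.63 ± 0.0606 in MOLM-13 and 0.93 ± 0.0768 in OCI-AML2. LIPA, the acid lipase that frees cholesterol and fatty acids from lipoprotein lipids, was one of 2 genes with a larger rise in MOLM-13 that was called in the test of the difference (chr10:89213569-89414557, minus strand). LIPA had 148, 151 and 161 CPM with selinexor and 103, 101 and 104 CPM with vehicle in MOLM-13. LIPA had 86.1, 91.8 and 85.7 CPM with selinexor and 73.3, 75.5 and 71.2 CPM with vehicle in OCI-AML2. Its log2 fold change was 0.58 ± 0.0498 in MOLM-13 and 0.26 ± 0.0592 in OCI-AML2, with treated libraries above controls in both. ACP2, the lysosomal acid phosphatase, had 8.07, 7.61 and 7.12 CPM with selinexor and 8.26, 9.52 and 10.3 CPM with vehicle in MOLM-13, and 20.5, 22.1 and 14.5 CPM with selinexor and 20.8, 21.3 and 17.9 CPM with vehicle in OCI-AML2. Neither change was called (-0.30 ± 0.171 in MOLM-13, edgeR adjusted p = 0.117; -0.08 ± 0.123 in OCI-AML2, edgeR adjusted p = 0.612), although the MOLM-13 groups did not overlap; the OCI-AML2 value was 0.094 without the third selinexor library.

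Of 6 membrane proteins, 3 were called higher and 2 lower in MOLM-13 (median log2 fold change 0.0014), where 31.8% of all genes were called in each direction. The count called lower was near that share. In OCI-AML2, where 31.3% and 31.8% of all genes were called higher and lower, 3 of the 6 membrane proteins were called higher and none lower (median 0.087). CD63, a tetraspanin of lysosomes, endosomes and exosomes, had the largest rise in OCI-AML2 (chr12:55725323-55729707, minus strand). It had 118, 119 and 128 CPM with selinexor and 101, 89.6 and 88.4 CPM with vehicle in MOLM-13. It had 326, 316 and 339 CPM with selinexor and 163, 167 and 175 CPM with vehicle in OCI-AML2. Treated libraries lay above controls in both lines, with log2 fold changes of 0.39 ± 0.0543 in MOLM-13 and 0.96 ± 0.0429 in OCI-AML2. SCARB2, the receptor that carries glucocerebrosidase to the lysosome, rose more in MOLM-13 (chr4:76158733-76234536, minus strand). SCARB2 had 23.3, 21.2 and 19.5 CPM with selinexor and 13.2, 12.7 and 11.7 CPM with vehicle in MOLM-13. SCARB2 had 37.6, 34.7 and 36.5 CPM with selinexor and 31.6, 30.3 and 30.03 CPM with vehicle in OCI-AML2. The groups were apart in both, and the rise was 0.77 ± 0.121 in MOLM-13 (edgeR adjusted p = 2.71e-08) and 0.24 ± 0.0826 in OCI-AML2 (edgeR adjusted p = 0.00970).

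LAMP1 and LAMP2, the main glycoproteins of the membrane, did not move alike. LAMP1, with 5 CACGTG cores in its printed stretch, had 233, 234 and 238 CPM with selinexor and 285, 288 and 281 CPM with vehicle in MOLM-13, where every treated library lay below every control (chr13:113297241-113323672, plus strand). In OCI-AML2 it had 338, 318 and 333 CPM with selinexor and 349.6, 333 and 356 CPM with vehicle, with overlapping groups. The log2 fold change was -0.28 ± 0.0385 in MOLM-13 (edgeR adjusted p = 5.66e-10) and -0.07 ± 0.0405 in OCI-AML2, which was not called (edgeR adjusted p = 0.129) but was without the second vehicle library (-0.10, edgeR adjusted p = 0.0215). LAMP2, which also serves as the receptor of chaperone-mediated autophagy, averaged 183 ± 6.43 CPM with selinexor and 170.3 ± 6.28 CPM with vehicle in MOLM-13, and 286 ± 8.29 CPM with selinexor and 221 ± 3.77 CPM with vehicle in OCI-AML2 (SD, n = 3). It rose by 0.37 ± 0.0411 in OCI-AML2, and its MOLM-13 change of 0.11 ± 0.0441, called at an edgeR adjusted p of 0.0298, was not called without the third selinexor library (0.076) or the second vehicle library (0.074). NPC1, which exports cholesterol from the lysosome, had 27.8, 25.2 and 26.2 CPM with selinexor and 26.1, 31.4 and 27.4 CPM with vehicle in MOLM-13, and 26.5, 21.8 and 24.3 CPM with selinexor and 24.9, 27.0 and 27.9 CPM with vehicle in OCI-AML2. Its groups overlapped in both lines, with -0.10 ± 0.0955 and -0.14 ± 0.0967 in MOLM-13 and OCI-AML2, neither called. MCOLN1, the calcium channel TRPML1 of the lysosome, with 2 cores in its printed stretch, had 16.4, 13.9 and 15.2 CPM with selinexor and 17.5, 20.4 and 17.8 CPM with vehicle in MOLM-13, and 9.20, 9.06 and 9.99 CPM with selinexor and 12.8, 11.2 and 10.2 CPM with vehicle in OCI-AML2. All treated libraries lay below all controls in both lines. The MOLM-13 change of -0.29 ± 0.120 (edgeR adjusted p = 0.0261) was not called without the second library of either treatment (-0.23 without the selinexor library, -0.22 without the vehicle library), and the OCI-AML2 value of -0.27 ± 0.144 was not called (edgeR adjusted p = 0.101).

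Transcripts of the transcription factors themselves changed little. TFEB had 18.5, 19.5 and 20.4 CPM with selinexor and 20.4, 21.7 and 19.6 CPM with vehicle in MOLM-13, and 21.2, 22.1 and 17.9 CPM with selinexor and 19.9, 16.8 and 20.2 CPM with vehicle in OCI-AML2 (chr6:41683978-41736259, minus strand). The groups overlapped in both lines, and the differences of -0.08 ± 0.109 in MOLM-13 (edgeR adjusted p = 0.529) and 0.11 ± 0.110 in OCI-AML2 (edgeR adjusted p = 0.394) were not called. TFE3 had 29.5, 38.7 and 29.9 CPM with selinexor and 27.2, 25.7 and 26.9 CPM with vehicle in MOLM-13, and 31.5, 27.6 and 27.4 CPM with selinexor and 25.8, 25.6 and 30.5 CPM with vehicle in OCI-AML2 (chrX:49028726-49043486, minus strand). Its MOLM-13 rise of 0.30 ± 0.0949 (edgeR adjusted p = 0.00361) rested on the second selinexor library: without it the value was 0.16 and was not called (edgeR adjusted p = 0.190). The OCI-AML2 groups of TFE3 overlapped, with 0.08 ± 0.0940.

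**Figure D2:**
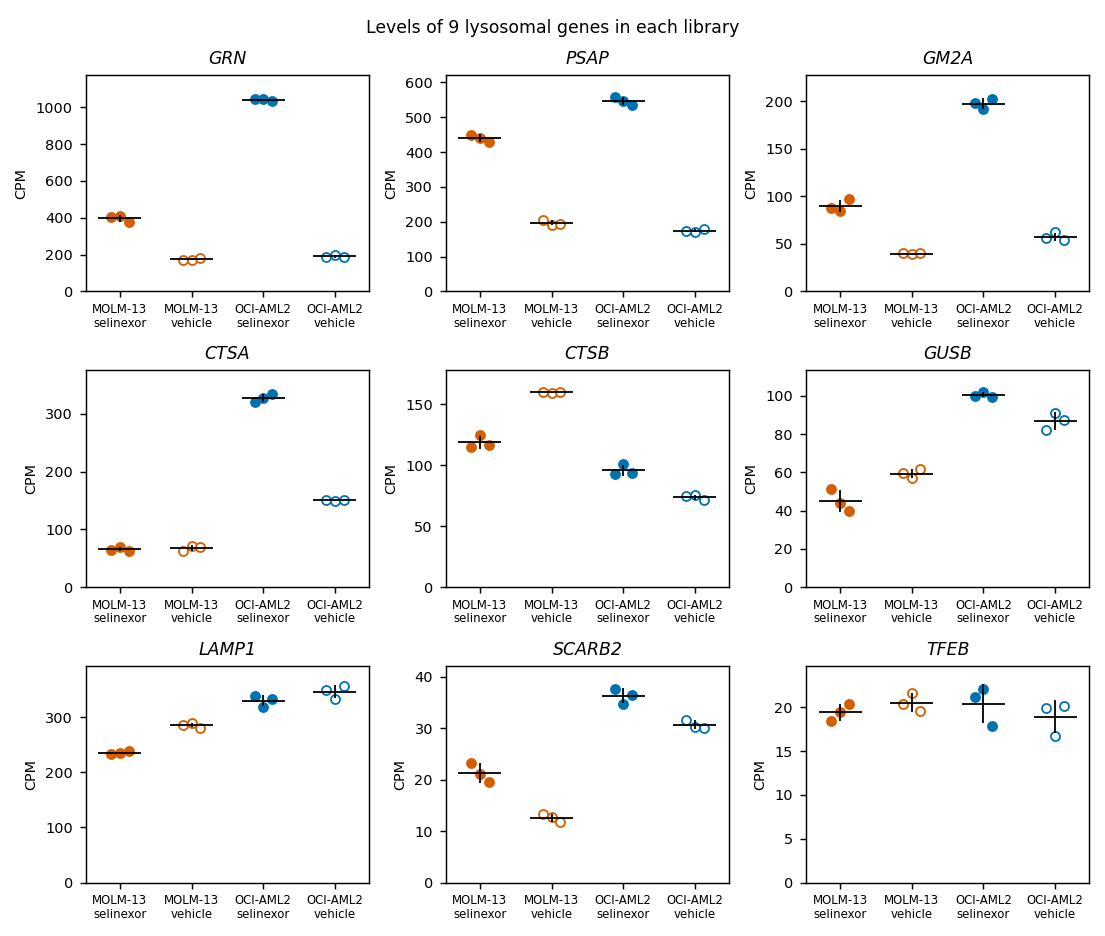
Level in CPM (y axis, from 0) of 9 lysosomal genes in each library of MOLM-13 (orange) and OCI-AML2 (blue), filled with selinexor and open with vehicle; lines and bars are mean ± SD of 3 libraries. GRN, PSAP and GM2A are higher with selinexor in both lines, CTSA in OCI-AML2 alone clears its vehicle libraries, CTSB and GUSB go opposite ways, and the TFEB groups overlap in both lines.

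Summed over the 35 genes, the level was 3077, 3046 and 3049.5 CPM with selinexor and 2316, 2310.3 and 2291 CPM with vehicle in MOLM-13, a ratio of means of 1.33. It was 5076, 5051 and 5108 CPM with selinexor and 2637, 2648 and 2714 CPM with vehicle in OCI-AML2, a ratio of 1.90. The sum weights abundant genes most and is a description with no test. Treated and control sums did not overlap in either line, and the libraries of a group lay within a narrow range. As a share of all counts the genes took 0.301 to 0.305% with selinexor and 0.232 to 0.234% with vehicle in MOLM-13, and 0.497 to 0.498% with selinexor and 0.269 to 0.275% with vehicle in OCI-AML2.

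By role, the sum of the 4 activators and soluble proteins showed the highest ratio in both lines, 2.20 in MOLM-13 and 4.11 in OCI-AML2. The glycosidases and sulfatase gave 1.41 and 1.75, and the lipid and phosphate hydrolases 1.48 and 1.46, in MOLM-13 and OCI-AML2. Protease sums were 604, 599 and 609 CPM with selinexor and 630.1, 637 and 609 CPM with vehicle in MOLM-13, groups that touched and a ratio of 0.966. They were 1096, 1119 and 1141 CPM with selinexor and 727, 726 and 742 CPM with vehicle in OCI-AML2, a ratio of 1.53. Membrane protein sums overlapped in MOLM-13, with a ratio of 0.993, and were apart in OCI-AML2, with a ratio of 1.26.

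**Figure D3:**
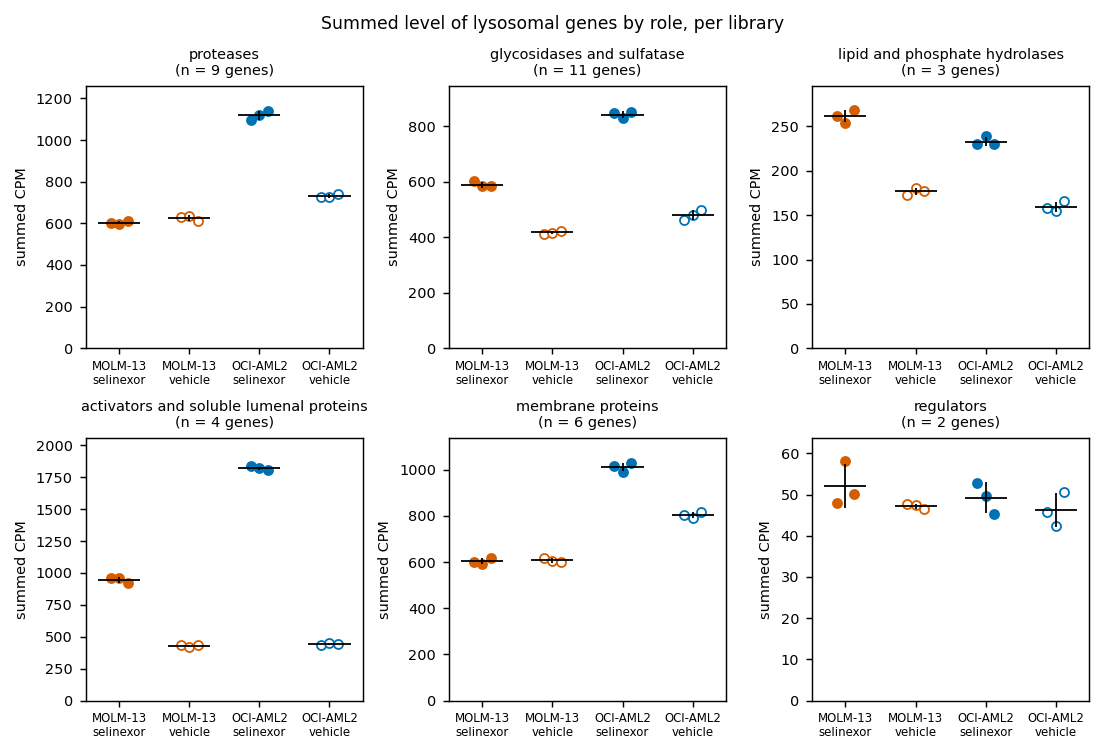
Summed CPM (y axes, from 0) of the lysosomal genes of each role in each library of MOLM-13 (orange) and OCI-AML2 (blue), filled with selinexor and open with vehicle; lines and bars are mean ± SD of 3 libraries. The activators reach 947 CPM with selinexor and 431 CPM with vehicle in MOLM-13, and 1822 CPM with selinexor and 444 CPM with vehicle in OCI-AML2.

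Levels were ranked within a group per kilobase of annotated exon (CPM per kb). The length is that of all annotated exons of a gene merged, not of the transcript expressed, so ranks depend on this divisor. With selinexor in MOLM-13, PSAP was highest at 136 CPM per kb, followed by GRN at 108 and MAN2B1 at 46.6; with vehicle, PSAP at 60.7 was followed by LAMP1 at 49.6 and GRN at 47.6. With selinexor in OCI-AML2, GRN was highest at 283 CPM per kb, followed by PSAP at 169 and CD63 at 124; with vehicle, CD63 at 64.0 was followed by LAMP1 at 60.3, PSAP at 53.9 and GRN at 51.8. In OCI-AML2 the soluble proteins GRN and PSAP thus ranked above the membrane proteins CD63 and LAMP1 with selinexor and below them with vehicle. By this measure SCARB2 was among the lowest of the tested genes in both lines. It had 1.10 CPM per kb with selinexor and 0.649 with vehicle in MOLM-13, and 1.88 and 1.58 in OCI-AML2. Its merged exon length, 19341 bases, was the largest of the 35 genes. By CPM it was not among the lowest in OCI-AML2, at 36.3 with selinexor and 30.6 with vehicle. It lay there above NPC1, MCOLN1, NAGLU, ACP2, TFEB and TFE3 in both groups. In MOLM-13 it had 21.3 CPM with selinexor and 12.6 CPM with vehicle, the latter low by CPM too.

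Most of the lysosomal genes had a lower log2 fold change in MOLM-13 than in OCI-AML2 when the difference itself was tested with an interaction term in 1 model of the 12 libraries. A lower value is a smaller rise for some genes, and for others, such as CTSC, CTSB, GUSB, NAGLU and LAMP1, a called fall in MOLM-13. The difference is the log2 fold change in MOLM-13 minus that in OCI-AML2, from a joint fit, so it can depart slightly from the gap between the values of each line. It was called for 22 of the 34 tested genes: 20 with the lower value in MOLM-13 (58.8%), where 19.0% of all 12530 genes had one, and 2 with the higher value, where 11.1% did. The 34 include CTSH and CTSL, which stayed in the joint fit through their OCI-AML2 counts. In MOLM-13 they had only 19 and 20 counts over all libraries, so their differences (-0.72 ± 0.703 and -0.15 ± 0.896, not called) carry little information. The median difference was -0.33 over the 34 lysosomal genes, CTSH and CTSL included, and -0.040 over all genes. Over all genes, 36.8% of the called differences were higher in MOLM-13, and this share was 44.4% with DESeq2's size factors, 49.2% with upper quartile scaling and 53.0% with library totals alone, while the lysosomal counts were 20 and 2 under each of these scalings. Leaving out 1 library gave 17 to 20 lower, with 17 without the first or second OCI-AML2 vehicle library or the second MOLM-13 vehicle library. Since the lines received different doses, a difference between them cannot be told apart from one between 75 and 200 nM.

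GRN had the largest difference, -1.32 ± 0.0570 (edgeR adjusted p = 3.17e-35), and CTSA the second, -1.24 ± 0.0738 (edgeR adjusted p = 8.29e-26). HEXA, CTSB and NPC2 followed with -0.87 ± 0.165, -0.85 ± 0.0750 and -0.77 ± 0.139. CTSD, GM2A, GUSB and CD63 lay between -0.70 and -0.61. NAGLU, PSAP, GAA, CTSZ, GLB1 and MAN2B1 lay between -0.54 and -0.45. The smallest of those called were ASAH1, LAMP2, TPP1, CTSC and LAMP1, between -0.35 and -0.26. Single libraries decided some of these calls. The TPP1 difference was not called without the first (-0.23) or second (-0.17) OCI-AML2 vehicle library or the first MOLM-13 vehicle library (-0.20). The ASAH1 difference was not called without the first (-0.24) or second (-0.16) OCI-AML2 vehicle library or the second MOLM-13 vehicle library (-0.19). LAMP1 lost the call without the second vehicle library of OCI-AML2 (-0.14) or MOLM-13 (-0.16), and CTSC without the second MOLM-13 vehicle library (-0.17). NAGLU lost it without the first (-0.39) or the third (-0.43) OCI-AML2 vehicle library or the first MOLM-13 selinexor library (-0.39). SCARB2 (0.48 ± 0.143, edgeR adjusted p = 0.00688) and LIPA (0.27 ± 0.0770, edgeR adjusted p = 0.00441) rose more in MOLM-13. For FUCA1 the difference of -0.23 ± 0.138, for MANBA -0.27 ± 0.147, for NEU1 -0.23 ± 0.106 and for CTSS 0.09 ± 0.0849 were not called, which does not show that the lines responded alike.

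**Figure D4:**
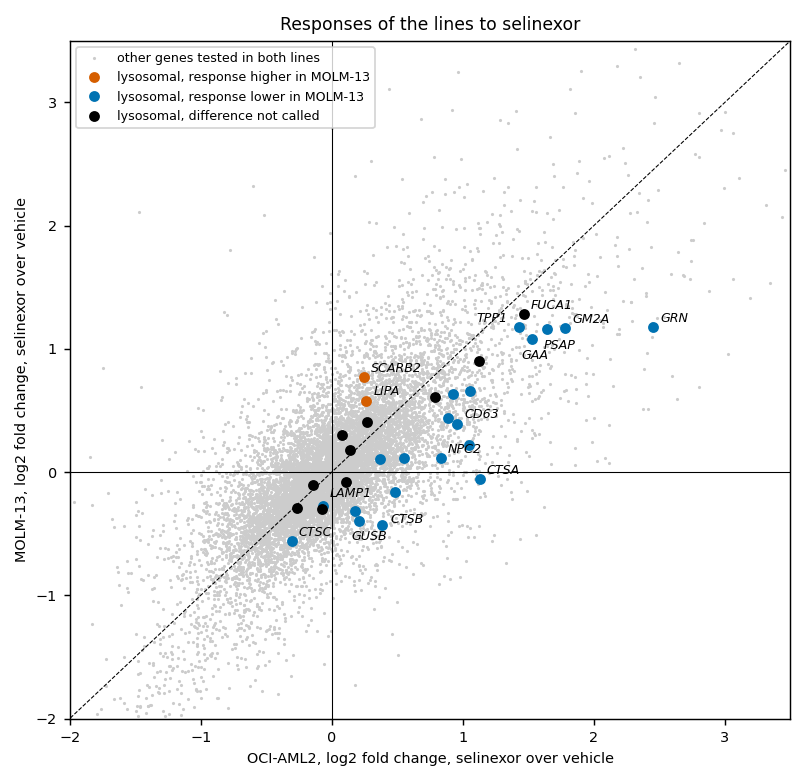
Log2 fold change (selinexor over vehicle) in OCI-AML2 (x axis) and MOLM-13 (y axis) of the lysosomal genes (large points, coloured by the test of the difference) and of 11108 other genes tested in both lines (grey; 62 genes lie outside the axes). The dashed line marks equal responses; 20 of the lysosomal genes are coloured as lower in MOLM-13 and 2, SCARB2 and LIPA, as higher.

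Other genes of the pathway were counted from 4 lists, beside the shares of all genes called higher and lower, 31.8% and 31.8% in MOLM-13 and 31.3% and 31.8% in OCI-AML2. Of 46 other lysosomal hydrolases, 24 of 38 tested were called higher and 6 lower in MOLM-13 (median log2 fold change 0.39), and 29 of 39 tested were called higher and 3 lower in OCI-AML2 (median 0.55). PLD3, an exonuclease of the lysosome, stood at 109 ± 1.79 CPM with selinexor and 34.0 ± 3.39 CPM with vehicle in MOLM-13, and 78.2 ± 3.80 CPM with selinexor and 17.2 ± 1.34 CPM with vehicle in OCI-AML2 (SD, n = 3), log2 fold changes of 1.67 ± 0.0674 and 2.18 ± 0.0790. CTSO, a cysteine protease, rose by 1.59 ± 0.216 in MOLM-13 and 2.03 ± 0.192 in OCI-AML2. IDUA, the iduronidase of glycosaminoglycan breakdown, rose by 1.82 ± 0.121 and 1.11 ± 0.169, and PRCP, a prolylcarboxypeptidase, by 1.06 ± 0.0821 and 1.02 ± 0.0556, in MOLM-13 and OCI-AML2.

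Of 38 other lysosomal membrane proteins measured, 15 of 35 tested were called higher and 6 lower in MOLM-13 (median 0.18), and 16 of 35 were called higher and 5 lower in OCI-AML2 (median 0.22). LAPTM5, a lysosomal membrane protein of blood cells, rose by 0.85 ± 0.0366 and 1.15 ± 0.0410, and CLCN7, a chloride-proton exchanger, by 0.89 ± 0.0449 and 0.81 ± 0.0400, in MOLM-13 and OCI-AML2. TPCN1, a cation channel, rose by 0.59 ± 0.0578 and 1.01 ± 0.0883, and CLN3, the protein of juvenile Batten disease, by 0.88 ± 0.181 and 0.58 ± 0.146. Of 25 genes that sort or activate lysosomal enzymes, 10 were called higher and 7 lower in MOLM-13 (median 0.034), and 13 higher and 8 lower in OCI-AML2 (median 0.14); the counts called lower were near the share over all genes in both lines. SUMF1, which activates sulfatases, rose by 0.74 ± 0.132 and 1.38 ± 0.104, IGF2R, a mannose 6-phosphate receptor, by 0.58 ± 0.0388 and 0.75 ± 0.0549, and SORL1, a sorting receptor, by 1.70 ± 0.194 and 0.55 ± 0.106. CLN6, an endoplasmic reticulum protein needed for enzyme export, was lower, at -0.58 ± 0.0794 in MOLM-13 and -0.43 ± 0.0722 in OCI-AML2.

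Of 35 genes for relatives of TFEB and for the nutrient sensing that controls it, 9 were called higher and 15 lower in MOLM-13 (median -0.13), and 12 higher and 13 lower in OCI-AML2 (median -0.025), the OCI-AML2 counts being near the shares over all genes. MITF, a factor of the same family, was at -0.09 ± 0.215 in MOLM-13, not called, and at -0.61 ± 0.177 in OCI-AML2, a called fall. TFEC, the remaining relative, rose by 0.73 ± 0.264 in MOLM-13 and was at -0.11 ± 0.119 in OCI-AML2, not called. ZKSCAN3, known as a repressor of lysosomal genes, rose by 0.87 ± 0.141 and 0.59 ± 0.164. Of the folliculin partners, FNIP1 rose by 0.56 ± 0.114 and 0.52 ± 0.0943, whereas FNIP2 was lower at -0.95 ± 0.210 and -0.53 ± 0.127, in MOLM-13 and OCI-AML2. XPO1, the target of the drug, rose by 0.66 ± 0.0350 and 0.63 ± 0.0401. Picked after its values were seen, RRAGD, a Rag GTPase, had 3.46 ± 1.45 CPM with selinexor and 0.882 ± 0.234 CPM with vehicle in MOLM-13, a low level. In OCI-AML2 it had 86.9 ± 4.99 CPM with selinexor and 36.5 ± 2.51 CPM with vehicle (SD, n = 3). The 6 listed genes for 14-3-3 proteins, which bind phosphorylated proteins, were likewise picked afterwards. Values of genes picked in this way are description only, and the activity of TFEB was not tested. All 6 genes for 14-3-3 proteins were called lower in both lines, as were 23.6% of all genes. They ran from -0.19 ± 0.0338 (YWHAZ) to -0.76 ± 0.0538 (YWHAH) in MOLM-13 and from -0.11 ± 0.0402 (YWHAB) to -0.50 ± 0.0400 (YWHAQ) in OCI-AML2.

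**Figure D5:**
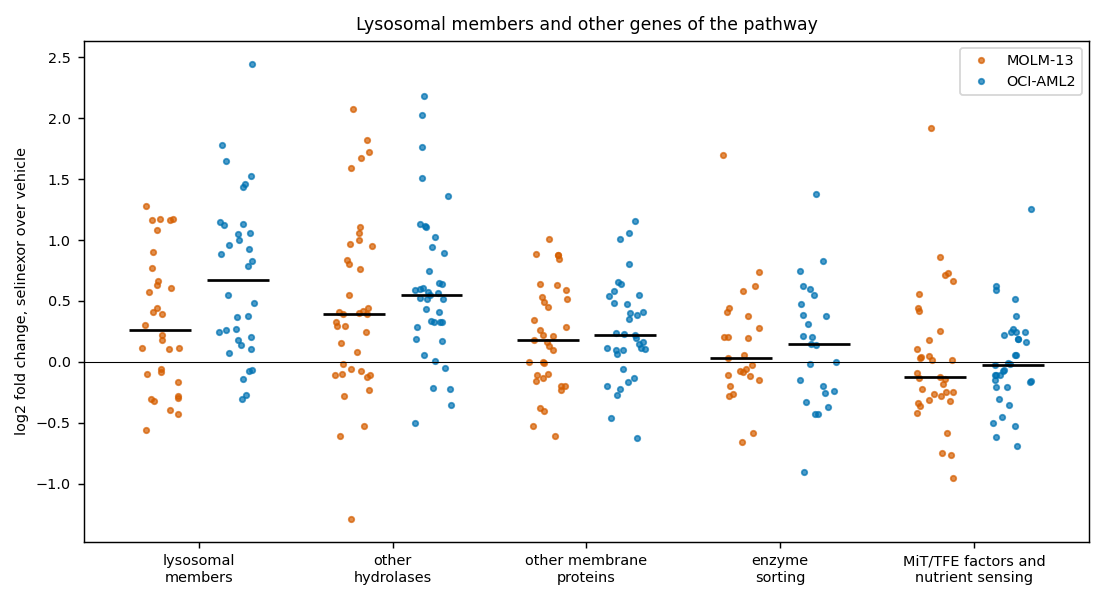
Log2 fold change (y axis, selinexor over vehicle) of the tested lysosomal genes and of 4 lists of other genes of the pathway, 1 point a gene, in MOLM-13 (orange) and OCI-AML2 (blue); black lines are medians. Medians run from 0.39 and 0.55 for the other hydrolases to -0.13 and -0.025 for the nutrient sensing list, in MOLM-13 and OCI-AML2.

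Markers of monocytes, granulocytes and blasts were counted in the same way. Of all genes, 31.8% were called higher and 31.8% lower in MOLM-13, and 31.3% and 31.8% in OCI-AML2. The counts called lower of blast markers in MOLM-13 and of granulocyte markers in OCI-AML2 were near these shares. Of 23 monocyte and macrophage markers, 7 of 12 tested were called higher and 1 lower in MOLM-13, and 11 of 16 tested were called higher and 2 lower in OCI-AML2. LYZ, lysozyme, had 958 ± 31.8 CPM with selinexor and 116 ± 2.73 CPM with vehicle in MOLM-13, and 9580.1 ± 146 CPM with selinexor and 1735 ± 106 CPM with vehicle in OCI-AML2 (SD, n = 3). CD14, a defining surface marker of monocytes, was below the filter in MOLM-13 and stood at 4.06 ± 1.30 CPM with selinexor and 2.01 ± 0.512 CPM with vehicle in OCI-AML2. Of 13 granulocyte markers, 6 of 7 tested were called higher and 1 lower in MOLM-13, with a sum of 6031 to 6442 CPM with selinexor and 3630 to 3793 CPM with vehicle, and 5 of 8 were called higher and 3 lower in OCI-AML2, with 4318 to 4455 CPM with selinexor and 1607 to 1631 CPM with vehicle. The log2 fold changes of the tested granulocyte markers ran from -0.56 to 1.89 in MOLM-13 and from -2.86 to 1.83 in OCI-AML2. In OCI-AML2 the largest change of the list was thus a fall. AZU1, a granule protein, rose by 0.79 ± 0.0308 and 1.83 ± 0.0383, and CSF3R, the receptor for granulocyte colony-stimulating factor, by 1.89 ± 0.0783 and 1.38 ± 0.0452, in MOLM-13 and OCI-AML2. FCGR1A, a monocyte receptor for immunoglobulin, went the other way, at -0.79 ± 0.0881 and -0.39 ± 0.0617, called lower in both. Of 10 blast and progenitor markers, 4 of 7 tested were called higher and 2 lower in MOLM-13, with a sum of 931.6 to 945 CPM with selinexor and 718 to 747 CPM with vehicle, and 5 of 7 were called higher and 1 lower in OCI-AML2, with 1321 to 1347 CPM with selinexor and 955 to 979 CPM with vehicle. FLT3, a receptor tyrosine kinase of progenitors, rose by 0.39 ± 0.0361 and 1.05 ± 0.0476, and MEIS1, a homeobox factor of leukaemic progenitors, was lower at -0.55 ± 0.0945 and -0.48 ± 0.0962, in MOLM-13 and OCI-AML2. Some of the 35 genes, CTSS and CD63 among them, are themselves abundant in monocytes or macrophages. The part of these markers in the lysosomal values was not tested.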

How the data were processed

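Paired-end RNA sequencing was done on polyadenylated RNA without strand information, per the labels' protocols. The submitters' processing notes name STAR, the hg38 build, R 3.6.1 and DESeq2; how reads were counted, and on which annotation, is not given in the sources used here. For each line the authors deposited 1 table of counts (whole numbers by gene symbol, 1 column a library), and for MOLM-13 a table of log2 fold changes. The sign of that table was opposite to the counts' own for 3877 of 3877 genes past 0.5 on the log2 scale, so it gives vehicle over selinexor; with its sign turned, the authors' deposited table differed from the values here by at most 0.0168 over the lysosomal genes tested in MOLM-13. Columns carry no replicate number, so libraries are numbered by their column and the number is only a name. No per-sample column was left without a sample of the series.

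From the counts, edgeR 4.0.16 in R 4.3.3 was used with TMM scaling, filterByExpr (minimum count 10, minimum total 15) and robust quasi-likelihood F tests, each line alone with its 6 libraries, and with an interaction term in a model of 12 libraries on the 15615 genes in both tables. The SE was taken as the size of the log2 fold change over the square root of F. Genes removed by the filter held 0.0873 to 0.137% of a library's counts. P-values measure the spread between libraries only. Alternatives were other scalings (DESeq2's size factors, upper quartile, library totals), no filter, DESeq2 1.42.0, limma voom (limma 3.58.1), a joint fit and leaving out each library.

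Every lysosomal gene is named. Values per library are given for the 3 genes of each role with the largest mean change, for genes not called higher in at least 1 line, and for called differences between the lines of at least 0.5; from the other lists up to 4 genes called alike in both lines with the largest smaller change and mean CPM of at least 5, plus MITF, TFEC, LYZ, CD14 and XPO1. The 35 genes, the lists and these rules were chosen with earlier results of these data known. GENCODE 29 on GRCh38 gave positions, exon lengths and exon overlaps for 35 of 35 genes by symbol. Promoter windows come from RefSeq on GRCh38.p14; 9 genes had none.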

Additional observations from a re-analysis of the deposited data

Results flagged for a closer look

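The response to selinexor differed between the lines in the interaction test (edgeR quasi-likelihood, adjusted p under 0.05) for 22 lysosomal genes, given as the log2 fold change in MOLM-13 minus that in OCI-AML2. Among proteases the difference was -1.24 for CTSA, -0.85 for CTSB, -0.70 for CTSD, -0.50 for CTSZ, -0.30 for CTSC and -0.30 for TPP1. Among glycosidases it was -0.87 for HEXA, -0.65 for GUSB, -0.54 for NAGLU, -0.50 for GAA, -0.49 for GLB1 and -0.45 for MAN2B1. Among lipid hydrolases it was -0.35 for ASAH1 and 0.27 for LIPA. Among activators and soluble proteins it was -1.32 for GRN, -0.77 for NPC2, -0.66 for GM2A and -0.53 for PSAP. Among membrane proteins it was -0.61 for CD63, -0.31 for LAMP2, -0.26 for LAMP1 and 0.48 for SCARB2. For CTSB and GUSB the libraries of each line moved as a group in opposite directions. Groups of 3 libraries are too small for the test of single outlying libraries.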

How the results depend on the processing

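Over all alternatives that could be run, the number of lysosomal genes called higher was 16 to 19 in MOLM-13 and 25 to 26 in OCI-AML2, and the number called lower was 4 to 6 and 1 to 3. Called differences between the lines were 17 to 20 lower and 2 higher in MOLM-13. The OCI-AML2 count of lower genes was 3 with library totals alone (LAMP1 and MCOLN1 were added) and ranged over 1 to 2 when a library was left out. The summed ratio was 1.39 in MOLM-13 and 1.98 in OCI-AML2 with upper quartile scaling, 1.30 and 1.83 with library totals alone, and 1.32 to 1.33 and 1.89 to 1.92 with a library left out.

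Direction and call were kept under every alternative for 25 of 32 genes in MOLM-13, 29 of 34 in OCI-AML2 and 25 of 34 for the difference. The last 34 include CTSH and CTSL, which were near the floor in MOLM-13. Signs turned only for uncalled values. CTSA in MOLM-13 was 0.012 with upper quartile scaling, and ACP2 in OCI-AML2 spanned -0.20 to 0.094 with a library left out. The differences of GLA and NPC1 were 0.028 and 0.026 with DESeq2's size factors, 0.050 and 0.049 with upper quartile scaling, 0.066 and 0.065 with library totals alone, and 0.027 and 0.026 in DESeq2. With a library left out, the difference spanned -0.068 to 0.097 for GLA, -0.083 to 0.16 for NPC1, -0.13 to 0.089 for MCOLN1 and -0.67 to 1.06 for CTSL. The cause was not tested. In DESeq2, GLA, NAGLU, LAMP2 and MCOLN1 lost their MOLM-13 calls. No paired analysis was possible because the columns carry no replicate numbers. At these depths the counts of CTSH and CTSL were too low in MOLM-13 for a comparison of treatments. Those of SGSH were too low as well, and the way its reads were counted is not known.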
